A study of Drosophila melanogaster with 24 samples.

Results

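The wing imaginal discs of animals without Su(Hw) were compared with those of Df/+ animals, which carry the same deletion chromosome but keep 1 su(Hw) gene on the other. The comparison used 8 of the 24 arrays of the series, 4 of null discs and 4 of Df/+ discs, chosen by genotype and tissue alone. The null has the su(Hw)v chromosome, which also carries the transposon P[CaS X/K5.3], over Df(3R)ED5644, and in Df/+ the same Df(3R)ED5644 lies over a chromosome of the wild-type strain Oregon R. The Df(3R)ED5644 chromosome is thus common to all 8 samples, and its homologue is su(Hw)v in the null and Oregon R in Df/+. By the paper's crosses the null came from 2 mutant stocks and Df/+ from an outcross to Oregon R, so the other chromosomes also differ in origin. For another strain of the study, the paper's methods write su(Hw)v as a deficiency, with a transposon that names RpII15, now called Polr2I. Any other difference between these chromosomes cannot be told apart from the loss of Su(Hw). Discs came from animals staged as soft white pre-pupae, with 6 discs per extraction by the labels and more by the paper, so each sample pools discs of more than 1 animal. Their sex is not stated. The third disc genotype, su(Hw)/+, has su(Hw)v over Oregon R and was not in the comparison. Its 4 samples carry the su(Hw)v chromosome beside a functional su(Hw) gene, but as an outcross to Oregon R they also differ from the null in other chromosomes. Their values are set beside the others as a description.

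Suppressor of Hairy-wing is a zinc finger protein that binds DNA at many sites in the fly genome. It is best known for the insulator in the gypsy retrotransposon, where with Mod(mdg4) and CP190 it blocks an enhancer from acting on a promoter on the far side. Flies without it are viable and females are sterile. The wing disc is the larval epithelium that becomes the adult wing and notum, and at the white pre-pupal stage it has just met the pulse of ecdysone that starts metamorphosis.

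By the paper, the 4 samples of each genotype were separate biological replicates. Each value is a log2 ratio of a genotype to one pool of wild-type disc RNA, so 0 is the wild-type level and the pool cancels in the difference null minus Df/+. Of 14444 probes analysed, 6144 (42.5%) had at least 3 values in both genotypes and were tested with limma. Null arrays held 4972 to 11157 probes and Df/+ arrays 6449 to 10984, with the fewest on null replicate 2 and Df/+ replicate 4. Replicates 1 and 3 of both genotypes had the genotype in Cy5 and replicates 2 and 4 in Cy3, so a dye effect cancels in the difference of a probe with all 8 values. The median difference over all probes tested was 0.14 and 68.7% of them lay above 0, and small differences are to be read against that shift. Taken over probes, which are not independent, the correlation of 2 arrays that shared genotype and dye had a median of 0.183, and across genotypes within a dye it was 0.268.

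The su(Hw) transcript itself had log2 ratios of -2.51, -1.52, -2.11 and -2.99 on the null arrays, and -0.09, -1.17, -0.81 and -0.54 on the Df/+ arrays. All 4 null values lay below all 4 Df/+ values. The mean was -2.28 ± 0.62 in the null and -0.65 ± 0.46 in Df/+ (SD, n = 4 each), a difference of -1.63 ± 0.32 (SE) or 3.1-fold less. This ranked fourteenth by p among all probes and did not pass the threshold after adjustment over all of them (limma adjusted p = 0.105). The exact permutation test of the 8 values gave a two-sided p of 0.0286, the smallest that 4 against 4 arrays allow. Without null replicate 2, which had the highest null value, the difference was -1.89 with an adjusted p of 0.044. In su(Hw)/+ discs the mean was -0.36 ± 0.50 (SD, n = 4). Where the probe lies relative to the su(Hw)v lesion is not stated in these sources, so the remaining signal cannot be ascribed to the transcript or to the background of the array.

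Polr2I, the gene of an RNA polymerase II subunit, is next to su(Hw) in gene order and is the one named with the transposon of that other strain. Its log2 ratios were 0.21, 0.23 and 0.41 on the 3 null arrays with a value and -0.49, -0.52, -0.91 and -0.64 on the Df/+ arrays, with no overlap. The difference was 0.92 ± 0.22 (SE), with an adjusted p of 0.409 in limma. The su(Hw)/+ mean was 0.82 ± 0.19 (SD, n = 4). The white gene w, an eye pigment transporter that transgenes and engineered deletions commonly carry as a marker, lay above the pool on all 8 arrays, though little on Df/+ replicate 4: 5.25, 1.92, 1.82 and 2.31 in the null and 3.37, 2.75, 2.94 and 0.31 in Df/+. These ranges overlapped and the difference of 0.48 ± 0.76 (SE) turned to -0.33 without null replicate 1 and to -0.20 without Df/+ replicate 4. In su(Hw)/+ discs w had 0.43 and 0.23 on the 2 arrays that measured it.

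The genes around su(Hw) were set side by side for the disc genotypes. Apart from su(Hw) and Polr2I, 9 genes were tested within 20 positions of su(Hw) in gene order. All 9 had a Df/+ mean below 0 and 8 had a null mean below 0, with medians of -0.35 in the null and -0.44 in Df/+. Over all probes tested the medians of such means were 0.06 in the null and -0.07 in Df/+. In su(Hw)/+, which lacks Df(3R)ED5644, 4 of the 9 lay below 0 and the median was 0.05. The null minus Df/+ differences of these genes ran from -0.20 to 0.26, with a median of 0.01. ATPsynE, the epsilon subunit of ATP synthase, had means of -1.09 in the null, -0.92 in Df/+ and 0.10 in su(Hw)/+. The chromatin gene trx had means of -0.64 in the null, -0.44 in Df/+ and 0.12 in su(Hw)/+. From 21 to 40 positions away the medians were -0.29 in the null, -0.35 in Df/+ and 0.06 in su(Hw)/+ (11 genes). From 41 to 60 positions away they were 0.24, -0.07 and 0.08 in the same order (12 genes). The insulin pathway transcription factor gene foxo, at 38 positions, had means of -0.47 in the null, -0.69 in Df/+ and -0.01 in su(Hw)/+. The limits of the deletion are given as cytological bands, and which of these genes lie between them was not looked up here.

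**Figure D1:**
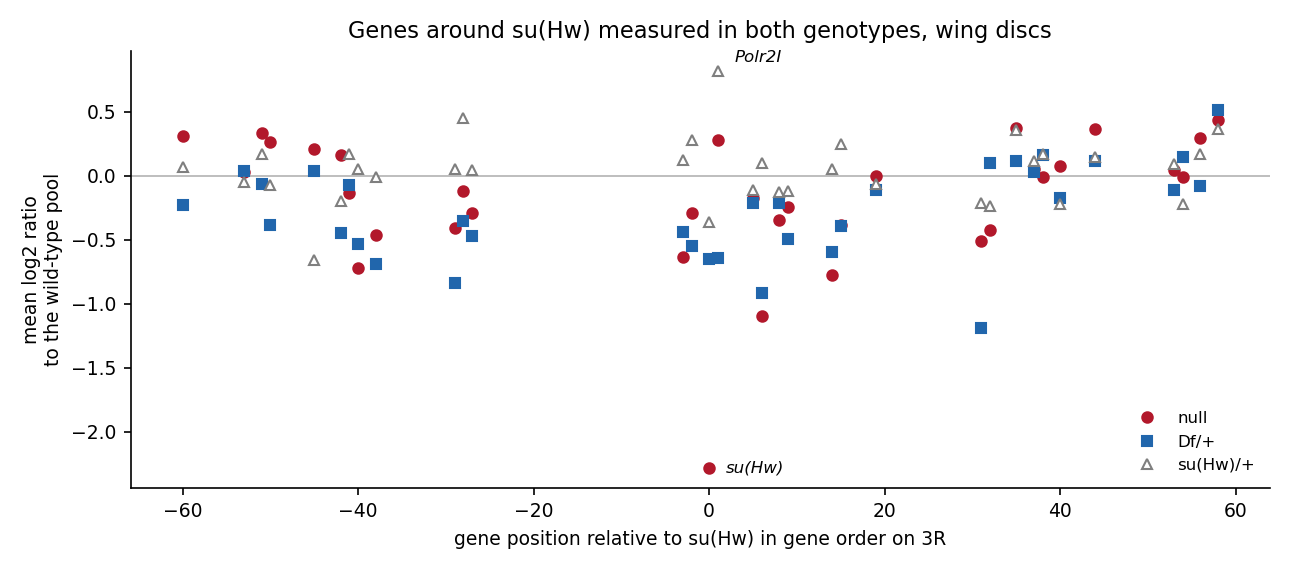
Mean log2 ratio to the wild-type pool (vertical axis) of genes by their position relative to su(Hw) on 3R (horizontal axis), with null as circles, Df/+ as squares and su(Hw)/+ as open triangles. The genes drawn are those tested. Within 20 positions the null and Df/+ medians are -0.35 and -0.44 without su(Hw) and Polr2I, which are the drawn genes where null and Df/+ part most.

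Of the 6144 probes, 3 were called higher in the null and 1 lower at a limma adjusted p under 0.05, which is 0.0488% and 0.0163% of those tested, or 0.0651% in all. At an unadjusted p under 0.05 there were 277 (4.51%), of which 221 were higher and 56 lower in the null. The groups did not overlap for 252 probes (4.1%), 179 higher (2.91%) and 73 lower (1.19%). The split of 3 higher and 1 lower became 4 higher and 6 lower when each array was centred on its median, and 1 higher and 0 lower after quantile normalization. Leaving out 1 array at a time gave 0 calls without null replicate 4 and without Df/+ replicates 1, 2 or 3, and at most 4 higher and 3 lower, without null replicate 2.

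CG32432, a gene on 3L that the files name by its annotation number, had the largest of the called differences. Its values were 1.66, 2.70, 3.05 and 2.33 in the null and -0.05, 0.58 and 0.24 on the 3 Df/+ arrays that measured it. The lowest null value lay more than 1 unit above the highest Df/+ value. The means were 2.44 ± 0.59 (SD, n = 4) in the null and 0.26 ± 0.31 (SD, n = 3) in Df/+, a difference of 2.18 ± 0.33 (SE), or 4.54-fold (adjusted p = 0.0389). Within Cy3 arrays the difference was 2.11 and within Cy5 arrays 2.41. Both su(Hw)/+ arrays that measured it lay within the range of Df/+ or below it, at 0.20 and -0.45. The call was lost without null replicates 2 or 4 or Df/+ replicate 3, with adjusted p-values up to 0.104. Without any one of the Df/+ arrays that measured it, too few values were left for the test. With 2 values allowed in the genotype that lost an array, the call held without null replicate 1 alone.

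CG9813, on 3R, was the second such gene. It had log2 ratios of 1.44, 2.42, 1.55 and 1.79 in the null and 0.05, -0.19 and -0.29 in Df/+. No null value came near those of Df/+, and the su(Hw)/+ values of -0.51 and 0.32 were on the Df/+ side. The difference was 1.94 ± 0.27 (SE), or 3.85-fold (adjusted p = 0.0344), and it was 2.29 within Cy3 and 1.62 within Cy5 arrays. It lost the call without null replicates 1 or 4, with adjusted p-values of 0.0579 and 0.104. Without any one of the Df/+ arrays that measured it, too few values were left for the test. With 2 values allowed in the genotype that lost an array, the call was lost whichever array was left out. CG9813 is one of 9 genes that the study names as changed in both tissues, so its place among the called probes is not independent of that list.

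CG31997, on the small chromosome 4, had the tightest null values, 1.25, 1.26, 1.37 and 1.43, against 0.15, -0.42, -0.36 and 0.15 in Df/+. The difference was 1.45 ± 0.22 (SE), or 2.72-fold (adjusted p = 0.0344), and the dyes gave 1.47 in Cy3 and 1.42 in Cy5. Here the su(Hw)/+ values were 0.81, 0.11, 0.87 and 1.15, of which 3 lay between the other genotypes and 1 within the Df/+ range. The call held without null replicates 2 or 3 and was lost in the other 6 cases, with adjusted p-values up to 0.237.

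Drsl5, a gene of the drosomycin family of antifungal peptides on 3L, was the called decrease. Its values were -4.20, -3.73, -4.09 and -4.26 in the null and -2.07, -1.37, -2.54 and -2.61 in Df/+. All 8 lay far below the pool, and the highest null value was more than 1 unit below the lowest of Df/+. The means were -4.07 ± 0.24 in the null and -2.15 ± 0.57 in Df/+ (SD, n = 4 each), a difference of -1.93 ± 0.28 (SE) or 3.8-fold less (adjusted p = 0.0344). The su(Hw)/+ arrays reached from -2.37 to -5.01, across both other ranges. The call held without null replicates 2 or 3 or Df/+ replicate 4, and elsewhere the adjusted p reached 0.131, without Df/+ replicate 2.

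**Figure D2:**
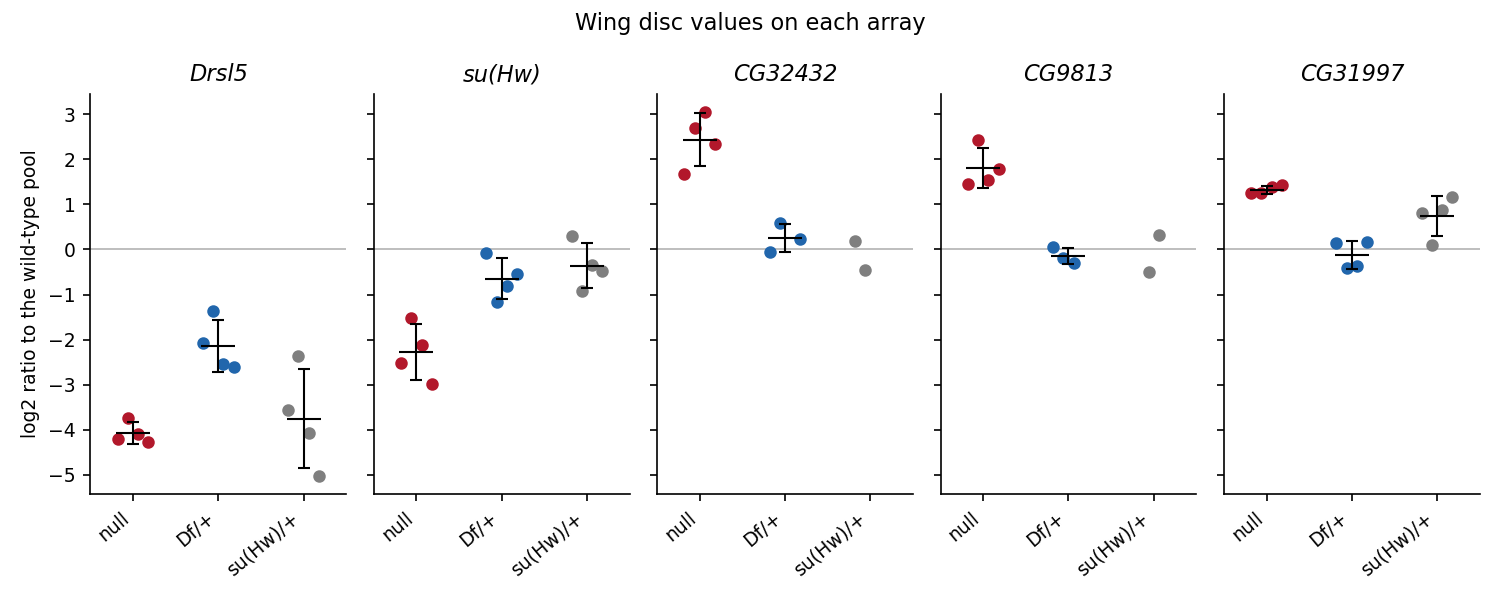
Log2 ratio to the wild-type pool (vertical axis) on each wing disc array for the 4 called probes and su(Hw), in null, Df/+ and su(Hw)/+ discs; each point is 1 array, and the bars give the mean and SD where 3 or 4 arrays had a value. The null and Df/+ points do not overlap in any panel, while su(Hw)/+ sits with Df/+ for CG32432 and CG9813, with 3 of 4 values between for CG31997 and across both for Drsl5.

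The probes next in rank, up to 12 in each direction with the called ones, did not pass the adjusted threshold and are given as values. Their groups did not overlap either, except those of Cpr49Ag, next to 4.1% of all probes without overlap. Probes picked for a small p on these same arrays tend to separate in this way, so it adds no evidence. Among those higher in the null was Hyccin, whose human counterpart belongs to the complex that holds a phosphatidylinositol kinase at the plasma membrane. It had 1.69, 1.54, 3.09 and 1.74 in the null and 0.16, -0.40 and -0.45 in Df/+, a difference of 2.25 ± 0.36 (SE; adjusted p = 0.0541). In su(Hw)/+ it was as far above the pool as in the null, at 1.70, 1.80, 2.68 and 1.61. The actin-binding protein gene Unc-115b, named after its worm counterpart, showed the same arrangement. Its values were 1.38, 0.87, 1.01 and 1.35 in the null, 0.19, -0.44, -0.92 and -0.27 in Df/+, and 1.56, 0.44, 1.64 and 1.05 in su(Hw)/+, with a null minus Df/+ difference of 1.51 ± 0.26 (SE; adjusted p = 0.0541).

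Xrp1, a bZIP transcription factor induced in stressed and outcompeted cells of discs, had 1.42, 0.56, 1.75 and 0.82 in the null and -0.66, -0.21, -0.56 and -0.29 in Df/+ (difference 1.57 ± 0.27, SE; adjusted p = 0.0541). The difference was 2.20 in Cy5 and 0.94 in Cy3 arrays. In su(Hw)/+ one array, replicate 2, stood at 2.84 and the other 3 ran from -0.45 to 0.72. The cell death activator rpr had 1.07, 1.13 and 1.36 on 3 null arrays and 0.04, -0.01, -0.54 and 0.04 in Df/+ (difference 1.31 ± 0.24, SE; adjusted p = 0.0831), with 0.31 to 0.80 in su(Hw)/+. Values for puc, the phosphatase that the JNK pathway induces against itself, were 1.89, 0.47, 1.70 and 0.10 in the null and -0.46, 0.36, -0.57 and -0.34 in Df/+, which overlapped. Its difference of 1.29 ± 0.38 (SE; adjusted p = 0.759) was 2.31 in Cy5 and 0.28 in Cy3 arrays. Of the 11 genes of the cell death list that were tested, 2 (rpr and puc) had an unadjusted p under 0.05, next to 3.6% of all probes in that direction, and 8 lay above 0, with the median of all probes, 0.14. The caspase gene Drice, at -0.39 ± 0.23 (SE), the initiator caspase gene Dronc, at 0.51 ± 0.34 (SE), and p53, at -0.11 ± 0.30 (SE), had smaller differences.

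ImpL2, a secreted protein that binds insulin-like peptides, was measured by 2 tested probes that ran the same way. The first had 0.98, 1.06, 0.54 and 0.11 in the null and -0.42, -0.49, -1.26 and -0.04 in Df/+ (1.22 ± 0.30, SE; adjusted p = 0.391), and the second differed by 0.96 ± 0.30 (SE; adjusted p = 0.858). On su(Hw)/+ replicate 2, where Xrp1 was also high and puc stood at 3.14, these probes stood at 2.59 and 3.36, while the other 3 arrays of that genotype ran from -0.45 to 0.24 and from -0.28 to 0.72. One further ImpL2 probe had 1 value in each genotype, -0.46 in the null and 0.67 in Df/+. Within Cy3 arrays the tested probes differed by 0.85 and 0.39, and within Cy5 arrays by 1.60 and 1.53. ImpL2 is on the study's list of genes changed in both tissues.

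Dad, the inhibitory Smad that Dpp signalling induces in the wing disc, had 0.61, 0.51, 1.08 and 0.73 in the null and 0.10, -0.12, -0.37 and -0.39 in Df/+ (0.93 ± 0.22, SE; adjusted p = 0.327). The other higher probes by rank were CG4115 at 1.44 ± 0.25 (SE; adjusted p = 0.0541), hng3 at 1.06 ± 0.23 (SE; adjusted p = 0.236) and the unnamed probe 1000039846 at 1.47 ± 0.29 (SE; adjusted p = 0.101). CG4115 was near the pool in su(Hw)/+, at 0.04 ± 0.27 (SD, n = 4), and hng3 above it, at 0.82 ± 0.31 (SD, n = 4).

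**Figure D3:**
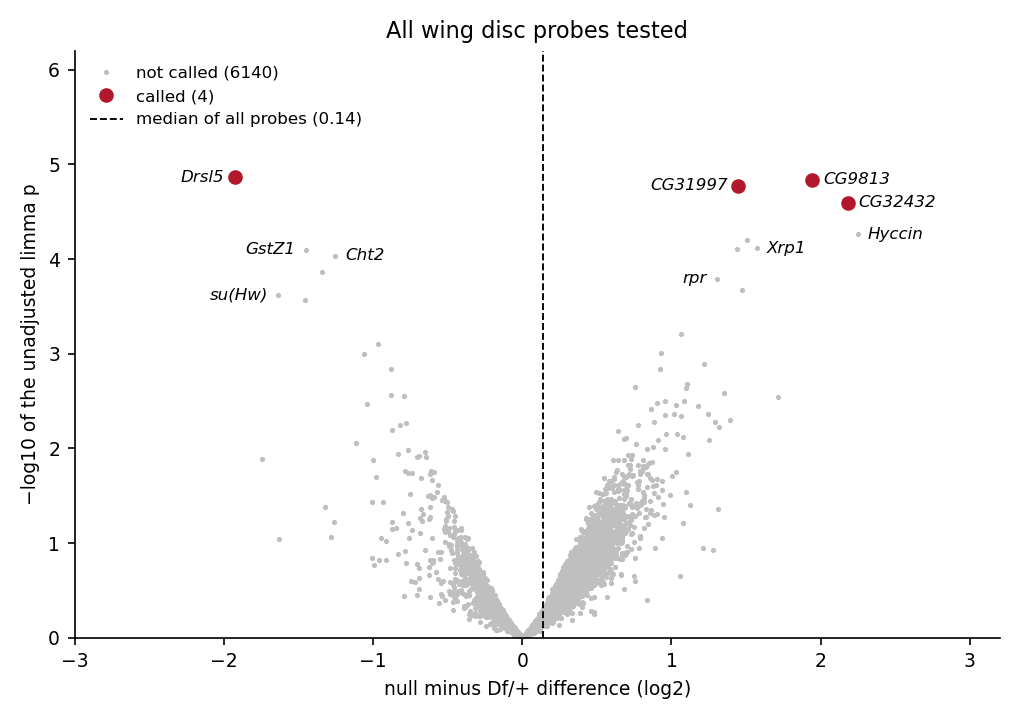
Difference null minus Df/+ in log2 (horizontal axis) against -log10 of the unadjusted limma p (vertical axis) for the 6144 wing disc probes tested. The 4 called probes are the large points, the dashed line is the median of all probes at 0.14, and more of the upper points lie on the right (221 at p under 0.05) than on the left (56).

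On the lower side, 2 enzymes led the probes that missed the threshold. GstZ1, a zeta class glutathione transferase, had -1.97, -1.80, -1.07 and -2.01 in the null and -0.21, 0.07, -0.47 and -0.45 in Df/+ (-1.45 ± 0.25, SE; adjusted p = 0.0541). In su(Hw)/+ it had -0.27, -0.34, -0.34 and -1.22, with 3 of 4 values inside the Df/+ range. The chitinase gene Cht2 had -1.87, -1.35, -2.06 and -1.97 in the null and -0.32, -0.63, -0.75 and -0.54 in Df/+ (-1.26 ± 0.22, SE; adjusted p = 0.0563). Its su(Hw)/+ values, -0.32 to -0.57, lay close to those of Df/+. Centring the arrays on their medians brought both under the threshold, and GstZ1 passed without null replicate 3 and Cht2 without null replicate 2.

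CG13053 differed from these in su(Hw)/+. It had -1.43, -1.0, -0.89 and -1.52 in the null, 0.17, 0.07, 0.59 and -0.31 in Df/+ and -1.06, -1.60, -1.15 and -1.22 in su(Hw)/+, so null and su(Hw)/+ discs had like values. The cause was not tested. The null minus Df/+ difference was -1.34 ± 0.25 (SE; adjusted p = 0.0766). CG11961 lay at -1.45 ± 0.29 (SE; adjusted p = 0.11), with su(Hw)/+ at 0.09 ± 0.29 (SD, n = 4). Among the others, Acat1, an acetyl-CoA acetyltransferase, differed by -0.97 ± 0.22 (SE) and the unnamed probe 1000035985 by -1.06 ± 0.24 (SE), with adjusted p-values of 0.283 and 0.327. The translation initiation factor gene eIF4E1, which binds the mRNA cap, differed by -0.79 ± 0.21 (SE; adjusted p = 0.601), while its other probe overlapped, with -0.19 and 0.10 in the null and -0.17, -0.21 and 0.36 in Df/+.

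The same contrast in whole larvae, with 4 arrays of each genotype and no array in common with the discs, was set beside the disc values. Of the 24 disc probes with the smallest p, 12 in each direction, 22 were tested in larvae and 21 had the same sign there, next to 60.6% of all 5662 probes tested in both tissues. The exception was the unnamed probe 1000039846, at -0.02 ± 0.18 (SE) in larvae. Whole larvae contain discs, and both tissues share the su(Hw)v chromosome. By the paper, disc RNA was amplified while larval RNA was labelled directly, and slides were normalized within each tissue. Tissue and method therefore cannot be told apart in a difference between discs and larvae. In larvae 37 probes were called higher and 48 lower of 8887 tested (0.416% and 0.54%), or 0.956% in all. Of these 85, 39 were tested in discs and 35 had the same sign there.

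CG9813 and Drsl5 were called in both tissues, at 2.32 ± 0.27 (SE; adjusted p = 0.00767) and -2.61 ± 0.47 (SE; adjusted p = 0.0304) in larvae. Cpr49Ag, at -1.27 ± 0.15 (SE; adjusted p = 0.00767), Polr2I, at 1.68 ± 0.20 (SE; adjusted p = 0.00767), and su(Hw), at -2.59 ± 0.27 (SE; adjusted p = 0.00475), were called in larvae. So was w, at 1.19 ± 0.20 (SE; limma adjusted p = 0.0225). Several larval differences lay closer to 0 than in discs. Hyccin was at 0.23 ± 0.27 (SE) in larvae, rpr at 0.09 ± 0.20 (SE) and CG31997 at 0.47 ± 0.19 (SE). The tissue difference itself, discs minus larvae, was 2.02 for Hyccin (unadjusted p = 0.00035), 1.22 for rpr (unadjusted p = 0.000712), 0.98 for CG31997 (unadjusted p = 0.00214) and 1.49 for probe 1000039846 (unadjusted p = 0.000333). After adjustment over 5662 probes 0 tissue differences passed in limma, with a smallest adjusted p of 0.528, and 259 had an unadjusted p under 0.05. CG32432 could not be tested in larvae, where its mean was 1.35 on 4 null arrays and its value was -0.10 on the 1 Df/+ array that measured it.

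**Figure D4:**
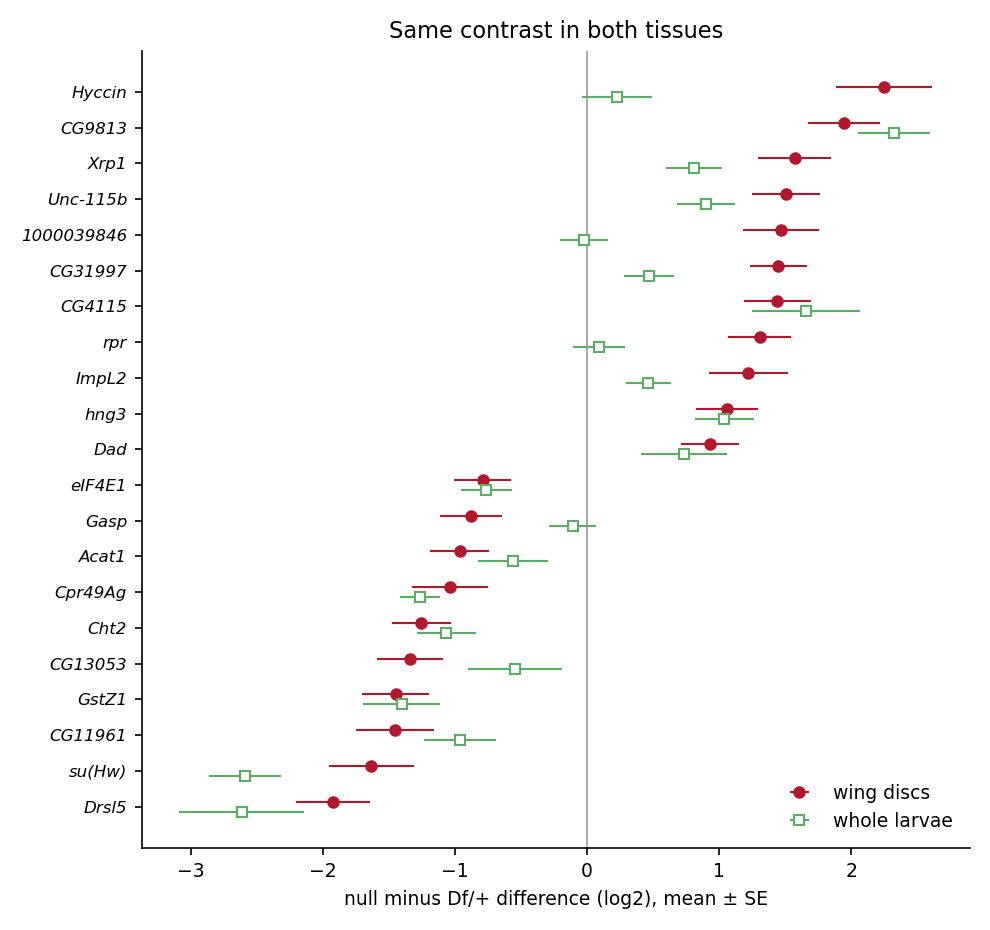
Null minus Df/+ difference in log2 with its SE (horizontal axis) in wing discs (filled circles) and whole larvae (open squares) for 21 of the 22 disc probes of smallest p in either direction that were tested in both tissues. The larval squares lie on the same side of 0 for 20 of the 21 shown, and Hyccin, rpr and probe 1000039846 have larval values near 0.

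Ecdysone response genes stood higher in the null than most probes. Of 17 tested, 15 lay above 0 and 6 had an unadjusted p under 0.05 and were higher, next to 68.7% and 3.6% of all probes, and 0 passed the adjusted threshold. The list's median difference was 0.55, against 0.14 over all probes, and its array medians ran from 0.01 to 0.48 in the null and from -0.53 to -0.16 in Df/+. Besides rpr and ImpL2 the 6 were the transcription factor genes Blimp-1 at 1.04 ± 0.32, Kr-h1 at 0.80 ± 0.29 and Hr3 at 0.77 ± 0.28, and the ecdysone-induced gene ImpL1 at 1.11 ± 0.38 (SE each). The receptor genes EcR, at 0.32 ± 0.27 (SE), and usp, at 0.55 ± 0.29 (SE), did not reach that level, and of the 6 tested probes of the early gene br, 1 at 0.71 ± 0.28 (SE) did and the others ran from 0.07 to 0.48. With the array of fewest values left out of each genotype, 4 members were higher at that level and the list median was 0.48. In larvae Blimp-1, Kr-h1 and Hr3 were at -0.04, -0.15 and 0.59.

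Heat shock genes varied widely between arrays of 1 genotype. Of 14 tested, 13 lay above 0 with a median of 0.52, next to 68.7% and 0.14 over all probes, and 1, Hsf, had an unadjusted p under 0.05. The list's median on the null arrays was 2.18, 0.27, -0.11 and 1.10, and on the Df/+ arrays 0.16, 0.57, 0.94 and -0.46. Hsp70Ab, a heat-induced chaperone gene, had 3.57, 1.12, 0.37 and 2.24 in the null and 0.85, 1.07, 2.06 and -1.79 in Df/+, which overlapped. With limma array weights, which were highest on null replicates 1 and 4, all 14 lay above 0, 8 had an unadjusted p under 0.05 and the list's median was 1.20. In larvae Hsp70Ba and Hsp70Ab were higher in the null, at 2.32 ± 0.32 and 1.92 ± 0.35 (SE each; limma adjusted p = 0.0105 and 0.0304).

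The Activin and BMP list, with 12 genes tested, had 11 above 0 and a median of 0.41, next to 68.7% and 0.14 over all probes. Dad was its 1 gene at an unadjusted p under 0.05, a level that 3.6% of all probes reached in that direction. The BMP ligand gene dpp differed by 0.22 ± 0.23 (SE), its receptor gene tkv by 0.23 ± 0.25 (SE), the receptor gene put by 0.68 ± 0.34 (SE) and Mad, the Smad that carries the signal, by 0.39 ± 0.27 (SE). The activin ligand gene Actbeta could not be tested because 2 Df/+ arrays measured it. It had 1.57, 1.69 and 1.92 in the null and 0.22 and -0.24 in Df/+, just outside the filter of 3 values that 2350 probes missed in this way, while 2354 of the 6144 met it with exactly 3 values. Allowing 2 values gave a difference of 1.74 ± 0.28 (SE; adjusted p = 0.111), and in larvae it was 2.86 ± 0.27 (SE; adjusted p = 0.00475).

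Of 31 wing disc patterning genes tested, 28 lay above 0, next to 68.7% of all probes, with a median of 0.22, which is 0.08 above that of all probes, and 1, Dad, had an unadjusted p under 0.05. The genes vg, nub, ap and tsh, used here as markers of the wing disc, were measured in both genotypes. They differed by 0.05 ± 0.24 for vg, 0.16 ± 0.22 for ap and 0.25 ± 0.25 for tsh (SE each), and by 0.30 to 0.54 over the 3 probes of nub. Dll, the distal gene of the wing margin, had 0.25, 0.77, 0.12 and 0.34 in the null and -0.06, 0.08, -0.46 and 0.11 in Df/+, without overlap, at 0.45 ± 0.23 (SE; adjusted p = 0.906), and a second probe differed by 0.41 ± 0.35 (SE). Of 15 genes of the Notch, Wnt, Hedgehog and EGFR pathways tested, 0 had an unadjusted p under 0.05 and the median was 0.17.

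Of 15 insulator protein genes tested, su(Hw) included, 12 lay above 0 with a median of 0.26, next to 68.7% and 0.14 over all probes, and su(Hw) was the one with an unadjusted p under 0.05. The 18 tested probes of its partner mod(mdg4), a gene of many isoforms, ran from -0.30 to 0.66, and Cp190 differed by 0.39 ± 0.24 (SE). CTCF and BEAF-32, which bind insulators of their own, differed by 0.27 ± 0.24 and -0.02 ± 0.20 (SE each).

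Cuticle and glutathione transferase genes lay on the other side of the median. Of 17 cuticle protein genes tested, from 126 on the array, 6 lay above 0, next to 68.7% of all probes, with a median of -0.08. Lower at an unadjusted p under 0.05 were Cpr49Ag at -1.04 ± 0.29, Gasp, a chitin-binding protein, at -0.88 ± 0.24, and Cpr78E at -0.87 ± 0.27 (SE each), next to 0.911% of all probes. TwdlE, of the Tweedle family of cuticle proteins, went the other way. It had 1.66, 2.39 and 0.18 in the null and 0.09, 0.03, -0.98 and -0.36 in Df/+, a difference of 1.71 ± 0.45 (SE; adjusted p = 0.601) that was 2.47 in Cy5 and 0.34 in Cy3 arrays. In su(Hw)/+ discs Cpr49Ag and Cpr78E averaged -1.16 and -0.95, nearer to the null means of -1.47 and -0.87 than to the Df/+ means of -0.43 and 0.00. Of 15 glutathione transferase genes tested 3 lay above 0, next to 68.7% of all probes, with a median of -0.16. GstZ1 and GstD1 (-0.59 ± 0.25, SE) were lower at an unadjusted p under 0.05, and GstD9 and GstE11 (0.56 ± 0.24 and 0.57 ± 0.25, SE) were higher, levels that 0.911% and 3.6% of all probes reached. Among the 15 tested genes of chitin building and turnover, Cht2 was the one lower and Idgf4 and Cht6 (0.68 ± 0.26 and 0.70 ± 0.28, SE) were higher at that level, the second probe of Cht6 being at 0.20 ± 0.30 (SE). Of the antioxidant genes, the superoxide dismutase gene Sod3 had -0.90, -0.67, -1.05 and -0.65 in the null and -0.55, -0.04, -0.19 and 0.11 in Df/+, at -0.65 ± 0.22 (SE; adjusted p = 0.906).

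**Figure D5:**
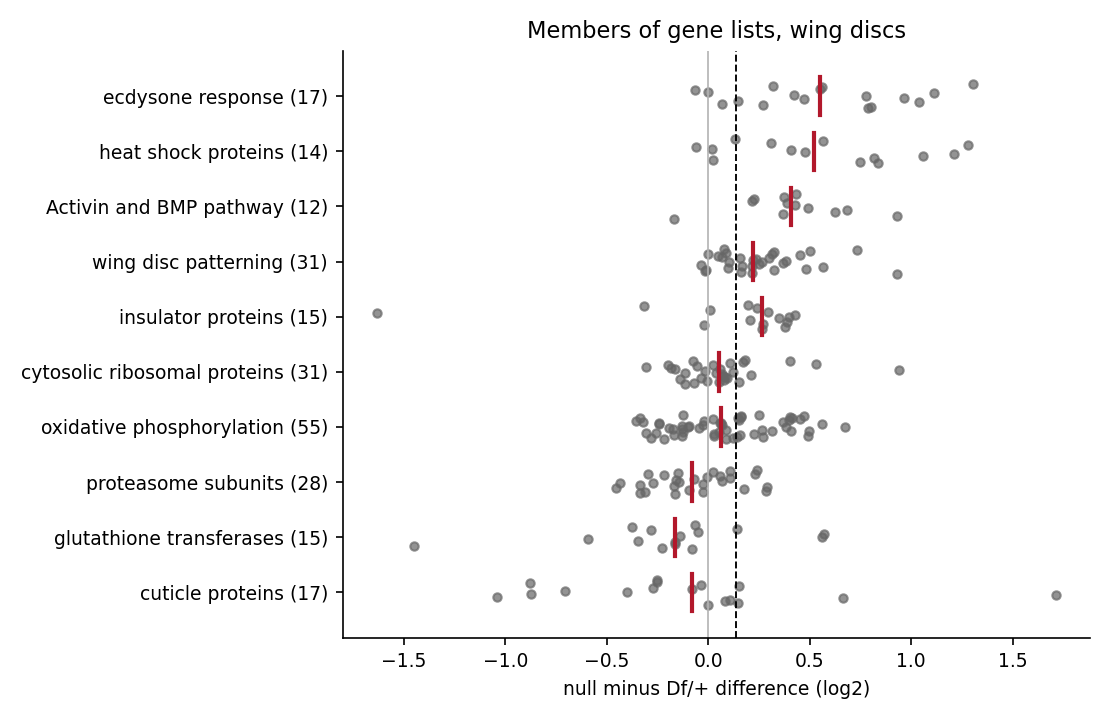
Null minus Df/+ difference in log2 (horizontal axis) of each gene tested in 10 lists (rows, with the number tested); each point is 1 gene, the vertical bar is the list's median, and the dashed line is the median of all probes at 0.14. The ecdysone, heat shock and Activin and BMP lists have medians of 0.55, 0.52 and 0.41, and the glutathione transferase and cuticle lists -0.16 and -0.08.

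Housekeeping machinery gave no calls, next to 0.0651% of all probes. The list medians were 0.05 for 31 cytosolic ribosomal protein genes, 0.06 for 55 genes of oxidative phosphorylation, -0.08 for 28 proteasome subunits and 0.01 for 22 genes of the cell cycle and DNA replication. In limma 0 of these genes passed, and 1 ribosomal and 1 oxidative phosphorylation gene had an unadjusted p under 0.05, next to 4.51% of all probes. In glycolysis and trehalose metabolism, with 18 tested, Pepck1, an enzyme of glucose synthesis, did not overlap, at 1.14, 0.38, 0.88 and 1.47 in the null and 0.24, -0.22 and -0.38 in Df/+ (1.09 ± 0.29, SE; adjusted p = 0.626). Of the 6 humoral immunity genes tested Drsl5 was the called one. The relatives Drsl4 and Drs differed by -0.83 ± 0.51 and 0.27 ± 0.25 (SE each), and the diptericin gene DptA, at -2.39 ± 0.77 in the null and -2.48 ± 0.47 in Df/+ (SD, n = 4 each), was as far below the pool in both.

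Of the 9 genes that the study names as changed in both tissues, which were chosen on these samples and are therefore no independent evidence, 8 were tested here. CG9813 was called, next to 0.0651% of all probes. ImpL2 was higher at an unadjusted p under 0.05 in limma, next to 3.6% of all probes. Lower at that level were su(Hw), GstZ1, eIF4E1 and Sod3, next to 0.911% of all probes. Actbeta was given above. The remaining members were the splicing factor gene B52, whose 4 tested probes differed by 0.05 to 0.63 with SEs of 0.20 to 0.39, and Hsdl2, at 0.36 ± 0.21 (SE). A list made for the genes that it names beside Su(Hw) sites had 6 tested members. Their median was 0.13, and 0 of them had an unadjusted p under 0.05. Among them were hry at 0.41 ± 0.25, foxo at 0.22 ± 0.27, wun at 0.15 ± 0.22 and wun2 at 0.11 ± 0.28 (SE each). The others were Nlg3 at -0.02 ± 0.26 (SE) and the juvenile hormone binding protein gene Jhbp2 at -0.69 ± 0.36 (SE). The paper writes neuroligin without a number, as the neighbour of CG10806, and several neuroligin genes were listed for it. CG10806 and Nlg2 lie on 2L and Nlg3 on 3R, so Nlg3 is not that neighbour, though the median includes it. Nlg2 had 1 value in each genotype and was not tested.

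By position, 19 of the 25 mapped probes with the smallest p lay on the third chromosome, which carries su(Hw), next to 2334 of 5286 mapped probes tested (44.2%). The count was 32 of the first 50, 51 of the first 100 and 106 of the first 250, by which point the share, 42.4%, was near that of all probes. In larvae 16 of the first 25 and 30 of the first 50 were on the third chromosome. The first 25 held 13 such probes in Cy3 arrays alone and 13 in Cy5 arrays alone. The median difference of the third chromosome arms, 0.15 for 3L and 0.12 for 3R, did not stand out from 0.11 for 2L, 0.13 for 2R and 0.19 for X. Among the first 5, Hyccin lay on 2R and CG31997 on chromosome 4.

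Genes that mark other tissues were sparsely measured. Of the gut list 6 of 44 genes on the array were tested, with array medians of -0.77 to 0.31 in the null and -0.51 to 1.00 in Df/+. The trypsin gene betaTry had -1.02, 0.31, -1.06 and -0.57 in the null and -0.08, 2.79, 2.15 and -0.23 in Df/+, and the protease gene Jon65Aiv stood at 2.28 on Df/+ replicate 2. These were lower in the null at an unadjusted p under 0.05 in limma, next to 0.911% of all probes. Npc2a, at 0.59 ± 0.26 (SE), was higher at that level, next to 3.6% of all probes. Above 0 lay 2 of the 6, next to 68.7% of all probes. Fat body list medians ran from -1.34 to 0.29 in the null and from -0.90 to -0.26 in Df/+ (8 tested), those of haemocytes from -0.14 to 0.61 and from -0.31 to 0.08 (4 tested), and those of muscle from -0.18 to 0.07 and from -0.09 to 0.61 (4 tested). Tracheal genes had medians from -0.47 to -0.03 in the null and from -0.81 to -0.09 in Df/+ (6 tested). Of these 3 lay above 0, next to 68.7% of all probes, and 3 below, among them Gasp. Those above included kni at 0.61 ± 0.32 and serp at 0.37 ± 0.29 (SE each). In these bulk samples fewer cells of a type and less RNA per cell cannot be told apart, and the part of other tissues in the differences was not tested.

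Probes measured in one genotype alone could not enter the comparison. There were 392 probes with at least 3 values in the null and at most 1 in Df/+, and 445 the other way round. Of the first set 4 had a mean ratio of 1 or more in size and of the second 0. The ecdysone-inactivating enzyme gene Cyp18a1 was among the 4, with 2.11, 2.82 and -0.11 in the null and 1 value, -0.27, in Df/+. Its su(Hw)/+ values were -0.27, 1.90 and 1.38. Syt1 and Drep2, which had no value in Df/+, were at 0.66, 0.96 and 0.79 and at 0.71, 0.60, 1.11 and 0.40 in the null, and their larval ratios averaged 0.14 and 1.31 in the null. In Df/+ larvae Syt1 averaged -0.10 on 3 arrays, and Drep2 had 0.04 on the 1 array that measured it. In CG42674 and CG30484 the large mean came from 1 array, null replicate 2, at 4.22 and 3.39.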

How the data were processed

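Two-colour oligonucleotide arrays compared each genotype with a pool of 20 wild-type extractions. The deposited values are log2 ratios that the authors had normalized by variance stabilization, with dye swaps already turned, and tested with CyberT. Spots of a probe were averaged, 714 control probes printed in 3 or more spots were left out, and 12598 of the 14444 other probes were matched to gene names of Drosophila Release 6 (RefSeq). Null and Df/+ means were compared with limma 3.58.1 in R 4.3.3 (empirical Bayes, Benjamini-Hochberg adjustment over all probes with 3 values in both, threshold 0.05), after the same code was tested on simulated data. Tables and figures used Python 3.11.15, pandas 2.3.3, numpy 2.4.6, scipy 1.17.1 and matplotlib 3.10.9.

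The number of arrays limits the precision. Named probes were those called, the next by p up to 12 in each direction, su(Hw), w and Polr2I, the members of the study's lists, up to 8 measured in 1 genotype alone, and the called or up to 3 leading members of each list. Other list members and genes near su(Hw) were named by their roles after their values had been seen. The comparison and the gene lists were chosen with earlier results of these data known. Alternatives were other normalizations, filters, dyes, array sets and weights, and those for gene lists were chosen after seeing the data. Promoter and probe sequences were not analysed here. One of the named probes is not reported here.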

Additional observations from a re-analysis of the deposited data

Results flagged for a closer look

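In 4 of the 66 groups of 4 arrays examined for named probes, 1 array stood far from the other 3 by Dixon's test, which chance alone gives in about 1 group in 20. Hyccin had 3.09 on null replicate 3, against 1.54 to 1.74 on the other null arrays. The eye pigment gene w had 5.25 on null replicate 1, against 1.82 to 2.31 on the others. The cell death gene rpr had -0.54 on Df/+ replicate 3, against -0.01 to 0.04 on the others. Probe 1000038612 of the splicing factor gene B52 had 0.70 on Df/+ replicate 1, against -0.38 to -0.30 on the others.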

How the results depend on the processing

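With few arrays and many missing values, the calls moved with the processing while the called differences kept their direction in every alternative run. Probes called higher and lower numbered 3 and 1 in the report. They numbered 8 and 4 with all 12 disc arrays in 1 model, 4 and 6 with arrays centred, 1 and 0 after quantile normalization, 10 and 6 with array weights, and 1 and 1 with values required on all 8 arrays. They numbered 0 and 0 in Cy3 or Cy5 arrays alone, with control probes kept, and without the array of fewest values in each genotype, where 162, 139, 227 and 155 probes had an unadjusted p under 0.05 in limma. The paper does not state whether the replicate numbers pair the arrays, and low correlations of deviations cannot exclude it. Same-numbered deviations correlated at -0.09, -0.12, -0.04 and 0.19, no array correlated best with its own number, and the replicate block gave 0 and 0 calls, with 277 probes at an unadjusted p under 0.05. The highest correlations joined arrays of the same dye under other numbers. They were 0.40 for null replicate 1 with Df/+ replicate 3, 0.50 for 2 with 4, 0.46 for 3 with 1 and 0.33 for 4 with 2. No fit blocked by these matches was run, and what they reflect was not tested. Leaving out 1 array gave 0 to 4 higher and 0 to 3 lower, and with 2 values allowed, chosen after seeing the data, 0 to 1 higher and 0 lower. For su(Hw) the difference was -1.72 centred and -1.93 with weights, both past the threshold (adjusted p = 0.0258 and 0.0105 in limma), and -1.89 to -1.40 leaving out 1 array. The probes of the third chromosome among the first 25 mapped numbered 13 in Cy3 and 13 in Cy5 arrays alone. Signs turned for wun (-0.26), Nlg3 (0.23) and B52 probe 1000038612 (-0.37) in Cy3 arrays, for wun2 in Cy5 arrays and with the block (-0.10 in both), for B52 centred (-0.041), for w (-0.090) and B52 (-0.11) after quantile normalization, and for Nlg3 (0.089) and B52 (-0.14) with weights. Leaving out 1 array, w ranged from -0.33 to 0.82, Nlg3 from -0.17 to 0.13 and B52 from -0.27 to 0.36. With 2 values allowed in addition, signs also turned for w (-0.33 and -0.20 without null replicate 1 and Df/+ replicate 4), for Nlg3 (0.076, 0.080, 0.060 and 0.13 without null replicates 3 and 4 and Df/+ replicates 1 and 3), for B52 (-0.083 and -0.27 without null replicates 1 and 3, and -0.024, -0.049 and -0.053 without Df/+ replicates 2, 3 and 4) and for wun2 (-0.073 without Df/+ replicate 2). The causes were not tested. Of 1046 values of 38 probes, 913 kept their direction and side of the threshold, 69 lost the call, 31 gained it and 33 changed sign.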
